A study of Neurospora crassa with 12 samples.

Results

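The transcripts of 8 heat shock and chaperone genes were examined among the 9758 genes of the filamentous fungus *Neurospora crassa*. They were chosen by locus: *hsp30* (NCU09364), *hsp30-2* (NCU07232), *hsp98* (NCU00104), *hsp70* (NCU09602), *hsp80* (NCU04142), *hsp88* (NCU05269), *hsp60* (NCU01589) and *grp78* (NCU03982). Earlier results of these data were known when the choice was made. RNA came from mycelia of wild type FGSC 4200 and of Δcys-3, written *cys-3*- here, which lacks part of the gene for the sulfur regulator CYS-3. Both strains were pregrown with 500 mg/L methionine in Vogel's minimal medium, washed, and moved for 4 h to Vogel's medium with 24 μM sulfate or with no sulfur source. Each of the 4 combinations of strain and medium had 3 cultures and 1 library per culture, 12 in all. The error of each comparison is the spread between cultures within groups, estimated jointly over all 4 groups. A wide spread in 1 group therefore also enters comparisons of the others. The mutant was 1 isolate, carrying a hygromycin resistance cassette in place of the start of the gene, and no complemented strain is among the samples.

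Chaperones hold proteins in a foldable state, refold them or pull aggregates apart, and many of their genes are induced by heat through heat shock transcription factors. Small heat shock proteins bind unfolding clients without using ATP, Hsp70 and Hsp90 proteins fold clients in cycles of ATP hydrolysis, and Hsp100 proteins extract polypeptides from aggregates. Separate chaperones serve the mitochondrial matrix and the endoplasmic reticulum, where secreted proteins fold.

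Transcript levels are given as FPKM, the Cufflinks measure that scales reads to transcript length and library size and so allows levels of different genes to be compared. The libraries held between 7.33 and 11.2 megareads (1 megaread is 1000000 reads), as implied by the width of the interval deposited with each FPKM, and replicates correlated with r of 0.982 to 0.997 across genes. The *cys-3* transcript checked the strain labels, although the cassette removes only the start of the gene and another gene overlaps the locus by 1563 bases. It stood at 58.7 to 66.6 FPKM in wild type with sulfate and at 132 to 162 FPKM in starved wild type, against 71.1 to 79.7 FPKM in the 6 *cys-3*- libraries, where it did not rise in starvation. With sulfate the mutant libraries, at 74.9 to 79.7 FPKM, showed no loss of the transcript, so the check rests on the starved libraries. Hyphal genes were abundant in every library (*act* 1187 to 1418 FPKM), and the 6 conidiation genes checked were low. *con-6*, *con-10* and *con-13* reached at most 1.63 FPKM, *con-8* 4.30 to 10.1 FPKM, the regulator *fl* 8.18 to 16.8 FPKM and the hydrophobin gene *eas* 6.83 to 36.9 FPKM.

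All 8 genes were above 9.0 FPKM in every library, none had a failed estimate, and each passed the minimum of 10 FPKM in at least 1 group that 5035 genes passed. Differences were tested with limma on log2(FPKM + 1) over those 5035 genes. A gene rose or fell when its Benjamini-Hochberg adjusted p was under 0.05, and was called changed when the group means also differed by at least 2-fold. Fold values are ratios of group mean FPKM, and log2 fold changes are on the log2(FPKM + 1) scale with the standard error (SE) of the fit. Bulk RNA cannot separate fewer cells expressing a gene from less of its RNA per cell.

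*hsp70* was the most abundant, with group means from 1029 to 1354 FPKM, ranking between 71 and 94 among all genes of a group. *hsp80* and *grp78* followed, with means of 354 to 539 FPKM and 287 to 595 FPKM. *hsp88*, *hsp60*, *hsp30* and *hsp98* lay between 45.5 and 212 FPKM, and *hsp30-2* had the lowest mean in all 4 groups. The order among *hsp88*, *hsp60*, *hsp30* and *hsp98* differed between groups. Together the 8 transcripts made up 0.434 to 0.561% of the summed FPKM of wild-type libraries and 0.349 to 0.461% of those of *cys-3*-.

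In wild-type cells, the 8 genes did not move together in sulfur starvation. Transcripts of *hsp30* and *hsp30-2* and of the disaggregase gene *hsp98* fell, that of the endoplasmic reticulum chaperone *grp78* rose, and the 4 genes of the cytosolic Hsp70, Hsp90 and Hsp110 chaperones and of the mitochondrial chaperonin did not pass the test. Of the 8 genes, 3 fell and 1 rose, while of the 5035 tested genes 12.0% fell and 11.1% rose. Called lower were 3 of 8 and called higher 0, against 3.12% of all tested genes called, 0.338% lower and 2.78% higher. Since the 8 genes were chosen with earlier results of these data known, such counts beside the shares do not test the set. The lower calls over all genes, 17 here, depended on the wild-type sulfate libraries: they numbered 5 (0.0997%) without replicate 1, 33 (0.652%) without replicate 2 and 26 (0.516%) without replicate 3, and 35 (0.695%) with quantile normalization. Without replicate 1, 2 of the 8 genes were still called lower. The starved libraries were all below those with sulfate for 3 genes and all above them for 1, against 33.8% of all tested genes without overlap, 18.1% lower and 15.7% higher. The median log2 fold change was -0.16 for the 8 genes and -0.04 for all tested genes. In *cys-3*- cells, 0 of 8 passed the test for starvation, where 0.417% of all tested genes did and 851 genes had an unadjusted p under 0.05, and 0 were called, against 0.0199%. All 8 estimates were nevertheless negative, with a median of -0.39 against -0.01 over all tested genes, and in 6 of the 8 every starved library was below every sulfate library, as in 16.4% of all tested genes.

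With 24 μM sulfate, 0 of 8 genes passed the test between the strains, against 0.238% of all tested genes and 829 with an unadjusted p under 0.05. None was called, against 0.159%, and the groups overlapped for all 8, while 14.9% of all tested genes had no overlap. In starvation 6 of 8 passed, 2 higher and 4 lower in *cys-3*-, against 37.8% of all tested genes (20.7% higher and 17.1% lower), and 3 were called, 2 higher and 1 lower, against 3.59% (0.834% higher and 2.76% lower). The groups did not overlap for any of the 8, with *cys-3*- above wild type for 3 and below for 5, as for 55.2% of all tested genes (28.5% above and 26.7% below). The summed level of the 6 conidiation genes also separated the strains. In starvation it was 28.8 to 37.5 FPKM for wild type against 47.0 to 50.6 FPKM for the mutant, and with sulfate 22.2 to 37.1 FPKM against 44.7 to 66.9 FPKM. Of these genes, *eas* alone separated the strains with sulfate, at 6.83 to 14.9 FPKM in wild type against 21.0 to 36.9 FPKM in the mutant. In starvation *eas*, *con-8* and, narrowly, *fl* did so. The part of these genes in the strain differences was not tested. The difference between the starvation responses of the strains (the interaction) passed for 2 of 8, *grp78* and *hsp80*, both more negative in *cys-3*-, against 13.9% of all tested genes (7.71% more negative), and 0 were called, against 3.18%. The comparisons that share a group of libraries are not independent of each other.

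**Figure D1:**
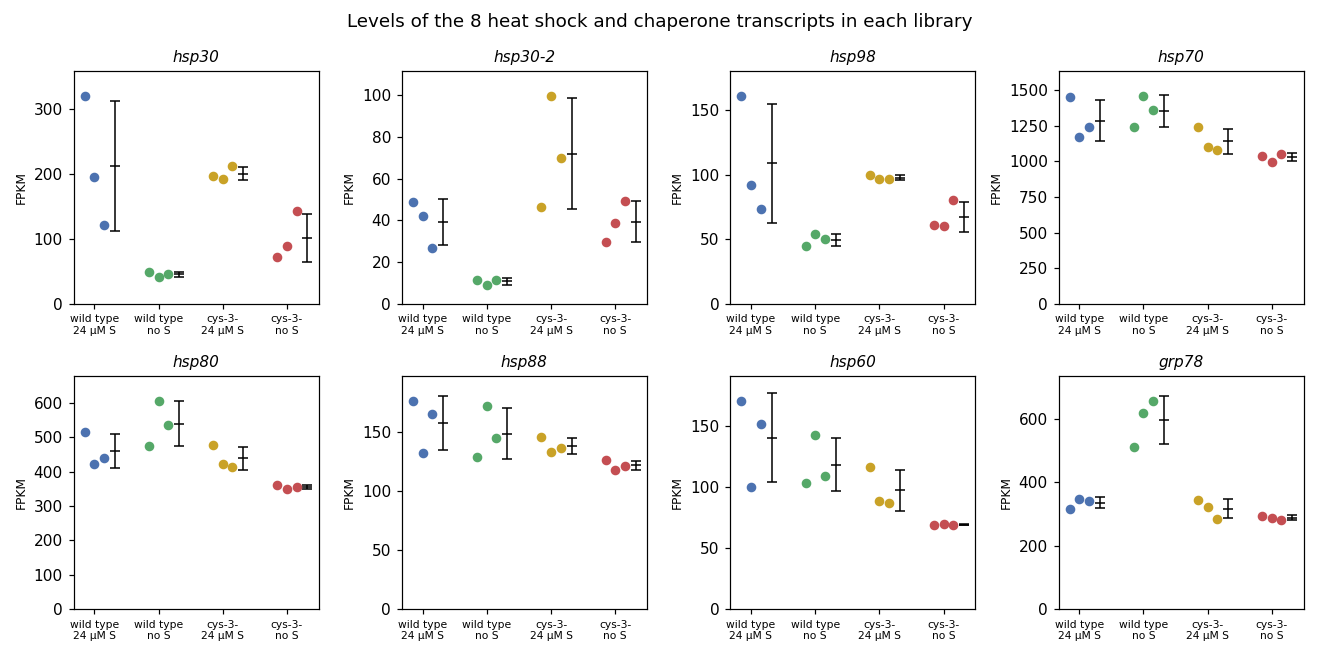
FPKM of the 8 transcripts (vertical axes, linear from 0) in each library, with replicates 1 to 3 from left to right, in wild type and *cys-3*- with 24 μM sulfate or no sulfur (S). Bars are the mean and SD of 3 libraries. *hsp30* and *hsp30-2* were lowest in starved wild type, and *grp78* was highest there, at 509 to 655 FPKM.

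*hsp30* encodes a small heat shock protein of the alpha-crystallin family. Its gene lies on chromosome I from base 3586694 to 3588207 (genome version 12), and its last 147 bases overlap the neighbouring gene NCU10352. In wild type the transcript stood at 320, 195 and 122 FPKM in replicates 1 to 3 with sulfate and at 48.5, 41.5 and 46.6 FPKM in starvation. The groups did not overlap, and the sulfate libraries were spread over a wider range than the starved ones. The mean fell from 212 ± 100 to 45.5 ± 3.60 FPKM (SD, n = 3), or 4.67-fold (log2 fold change -2.09, SE 0.29, limma adjusted p = 0.000253). The second largest drop among all 5035 genes by log2 fold change was that of *hsp30*.

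In *cys-3*- cells *hsp30* stood at 197, 193 and 212 FPKM with sulfate and at 71.7, 88.5 and 142 FPKM in starvation. Every starved library was again below every sulfate library, and the estimate was the most negative of all 5035 genes, yet the 1.99-fold difference did not pass (log2 fold change -1.04, SE 0.29, adjusted p = 0.108). With sulfate the strains differed by 0.03 on the log2 scale, with a 95% interval from -0.60 to 0.66. In starvation *hsp30* was 2.22-fold higher in *cys-3*- than in wild type (log2 fold change 1.07, SE 0.29, adjusted p = 0.0125). Without replicate 3 of starved *cys-3*-, the library at 142 FPKM, that difference was 1.76-fold and no longer passed (adjusted p = 0.0603). The response to starvation was not shown to differ between the strains (interaction 1.05, SE 0.41, adjusted p = 0.114). That difference passed in 1 of 24 other settings, without replicate 3 of wild type with sulfate (adjusted p = 0.0198).

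The implied reads of *hsp30* did not follow its FPKM. They come from interval widths and are not counts of reads. Those of the cyclophilin gene *csr-1* stayed between 2111 and 2174 in all 12 libraries, at implied depths of 7.33 to 11.2 megareads. Whether the implied reads or the FPKM of *hsp30* lie nearer to the change in its transcript was not tested. Scaled to library depth, the implied reads gave a wild-type level with sulfate that was 2.42 times that of starvation, against 4.67 times in FPKM, and in *cys-3*- the ratios were 1.55 and 1.99. Fitting the implied reads with limma-voom gave a log2 fold change of -1.27 in wild type (adjusted p = 9.2e-05). For *hsp30-2* and *hsp98* the ratios by reads in wild type, 3.76 and 2.21, were close to those in FPKM. The overlapping gene NCU10352 stood at 83.4 to 129 FPKM and had a starved to sulfate ratio of 1.08 in wild type. The authors treated the reads as unstranded, and the part of this overlap in the *hsp30* values was not tested.

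*hsp30-2*, on chromosome V from base 6162382 to 6164419, has no symbol in RefSeq, carries this name in the study, and overlaps no other gene. In wild type it stood at 48.5, 42.1 and 26.9 FPKM with sulfate and at 11.6, 9.0 and 11.5 FPKM in starvation. Each starved library was below each sulfate library, and the mean fell 3.67-fold (log2 fold change -1.75, SE 0.27, adjusted p = 0.000571), the third largest drop of all tested genes. In *cys-3*- it stood at 46.4, 99.7 and 69.9 FPKM with sulfate and at 29.8, 38.9 and 49.3 FPKM in starvation. These groups overlapped, and the 1.83-fold difference did not pass (adjusted p = 0.162).

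Between the strains, *hsp30-2* had the largest difference of the 8 genes. In starvation every *cys-3*- library was above every wild-type library, and the mean was 3.68-fold higher in the mutant (log2 fold change 1.77, SE 0.27, adjusted p = 0.000411). Only 2 of the 5035 genes had a more positive log2 fold change in this comparison. With sulfate the mean was 1.84-fold higher in *cys-3*-, but the groups overlapped and the test was not passed (95% interval of the log2 fold change 0.25 to 1.42, adjusted p = 0.257). The interaction was 0.93 (SE 0.38, adjusted p = 0.130) and passed in 1 of 24 other settings, without replicate 2 of *cys-3*- with sulfate (adjusted p = 0.0497). The FPKM of *hsp30* was 4.05 to 6.60 times that of *hsp30-2* in wild-type libraries and 1.93 to 4.25 times in *cys-3*- libraries, a ratio computed after the values had been seen and given without a test.

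*hsp98*, on chromosome III from base 2634913 to 2638616, encodes an Hsp100 protein of the type of yeast Hsp104, which works on aggregated proteins. With sulfate it stood at 161, 91.7 and 73.3 FPKM in wild type, and in starvation at 44.8, 53.9 and 50.3 FPKM. The groups did not overlap, and the fall was 2.19-fold (log2 fold change -1.04, SE 0.22, adjusted p = 0.00516). Replicate 1 with sulfate set the size of this ratio: without it the fall was 1.66-fold, still with an adjusted p of 0.0041. In *cys-3*- the transcript stood at 99.7, 96.4 and 97.1 FPKM with sulfate and at 60.8, 60.0 and 80.6 FPKM in starvation. Here too the groups did not overlap, and the 1.46-fold difference did not pass (adjusted p = 0.235). In starvation *hsp98* was 1.35 times as high in *cys-3*- as in wild type without passing (log2 fold change 0.42, 95% interval -0.06 to 0.89, adjusted p = 0.149). Every *cys-3*- library was above every wild-type library there. The difference passed in 2 of 24 other settings, with only the groups compared and without replicate 1 of wild type with sulfate (lowest adjusted p = 0.0183).

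**Figure D2:**
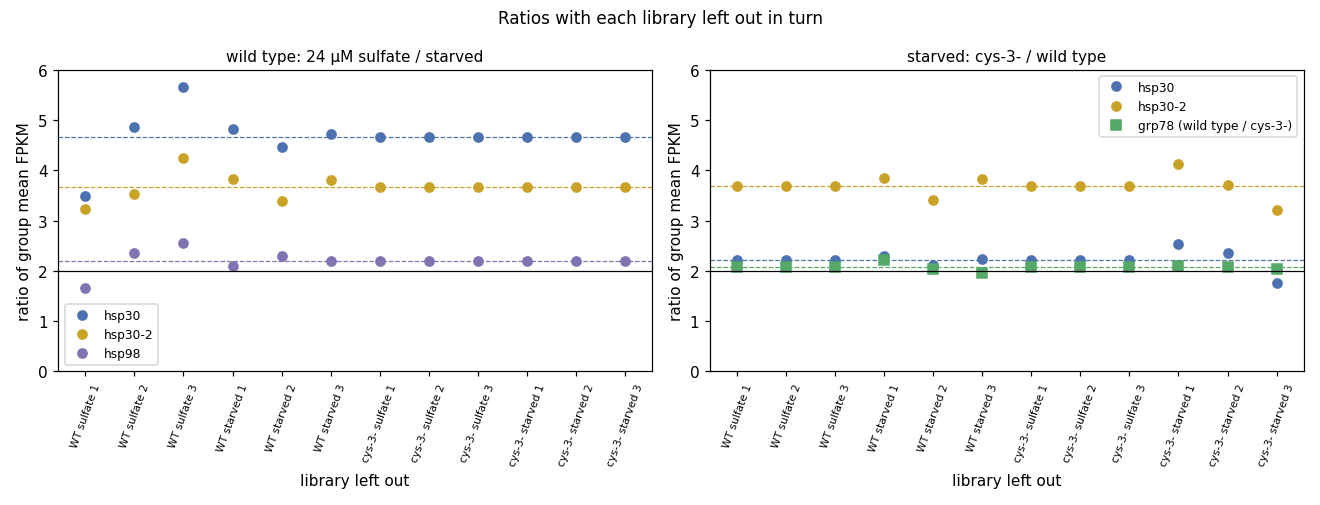
Ratios of group mean FPKM (vertical axes) with each of the 12 libraries left out in turn (horizontal axes, WT is wild type), for the fall in starved wild type (left) and between the strains in starvation (right, with *grp78* as wild type over *cys-3*-). Dashed lines are the ratios with all libraries and the solid line is 2-fold. The fall of *hsp30* ranged from 3.48 to 5.66-fold and that of *hsp30-2* from 3.23 to 4.24-fold, while *hsp98* dropped to 1.66-fold in 1 case.

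*hsp30*, *hsp30-2* and *hsp98* varied widely between replicate cultures in some groups and not in others. With sulfate the coefficient of variation in wild type was 47.2% for *hsp30*, 42.6% for *hsp98* and 28.4% for *hsp30-2*, against a median of 8.64% over all tested genes. In starved *cys-3*- cells it was 36.5%, 17.4% and 24.8%, against a median of 5.17%. In *cys-3*- with sulfate it was 4.98% for *hsp30* and 1.77% for *hsp98*, below the 17.0% of *hsp60*, but 37.1% for *hsp30-2*. In starved wild type it was 7.90% for *hsp30*, the lowest of the 8 genes, 9.20% for *hsp98* and 13.7% for *hsp30-2*, while *hsp60* at 18.3% and *hsp88* at 14.6% varied more. Replicate 1 of wild type with sulfate was the highest of its group for 7 of the 8 genes, all except *grp78*.

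The genes of the cytosolic chaperones changed less. *hsp70* (chromosome II, bases 79724 to 82693) encodes an Hsp70 protein and is named *hsp70-1* in RefSeq. In wild type it stood at 1450, 1168 and 1241 FPKM with sulfate and at 1242, 1460 and 1359 FPKM in starvation. These groups overlapped (log2 fold change 0.08, 95% interval -0.12 to 0.27). In *cys-3*- it stood at 1242, 1104 and 1080 FPKM with sulfate and at 1038, 997 and 1053 FPKM in starvation, without overlap but also without passing (adjusted p = 0.419). In starvation the mutant level was 0.760 times that of wild type (log2 fold change -0.39, SE 0.09, adjusted p = 0.00566).

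*hsp80* (chromosome V, bases 4974497 to 4977515) encodes the Hsp90 chaperone of *N. crassa*. It stood at 515, 422 and 439 FPKM in wild type with sulfate and at 475, 605 and 536 FPKM in starvation. In *cys-3*- the values were 477, 423 and 414 FPKM with sulfate and 360, 348 and 354 FPKM in starvation. The estimates had opposite signs in the strains, 0.23 in wild type and -0.30 in *cys-3*-, and neither passed (adjusted p = 0.119 and 0.161). Their difference passed (interaction -0.53, SE 0.14, adjusted p = 0.0264), with adjusted p values of 0.0026 to 0.097 over the other settings, of which 14 of 24 kept it under 0.05. In starvation *hsp80* was 0.657 times as high in *cys-3*- as in wild type (log2 fold change -0.60, SE 0.10, adjusted p = 0.000802).

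*hsp88* (chromosome IV, bases 5521208 to 5524962) encodes a protein of the Hsp110 family, relatives of Hsp70 that include yeast Sse1. It was the only 1 of the 8 genes that passed in no comparison. The wild-type libraries stood at 176, 132 and 165 FPKM with sulfate and at 128, 171 and 145 FPKM in starvation, and the *cys-3*- libraries at 146, 133 and 136 FPKM and at 126, 118 and 121 FPKM. In starvation the *cys-3*- libraries were all below those of wild type (log2 fold change -0.28, 95% interval -0.53 to -0.02, adjusted p = 0.0781).

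*hsp60*, the gene of the mitochondrial chaperonin (chromosome II, bases 3012906 to 3015387), stood at 170, 99.5 and 151 FPKM in wild type with sulfate and at 103, 143 and 109 FPKM in starvation. These groups overlapped and did not pass (log2 fold change -0.23, 95% interval -0.62 to 0.17). In *cys-3*- it stood at 116, 88.6 and 86.4 FPKM with sulfate and at 69.1, 69.6 and 68.7 FPKM in starvation, a 1.40-fold lower mean without overlap (adjusted p = 0.230). In starvation it was 0.586 times as high in *cys-3*- as in wild type (log2 fold change -0.75, SE 0.18, adjusted p = 0.00744). With sulfate the estimate was -0.50 (95% interval -0.90 to -0.11) and did not pass (adjusted p = 0.257).

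*grp78* (chromosome VI, bases 2329825 to 2332792) encodes the Hsp70 protein of the endoplasmic reticulum lumen, known as BiP, and was the only member that rose. In wild type it stood at 316, 348 and 341 FPKM with sulfate and at 509, 619 and 655 FPKM in starvation. Every starved library was above every sulfate library, and the mean rose 1.77-fold (log2 fold change 0.82, SE 0.10, adjusted p = 7.3e-05), short of the 2-fold needed for a call. In *cys-3*- it stood at 343, 321 and 285 FPKM with sulfate and at 294, 288 and 279 FPKM in starvation. These groups overlapped, and the estimate was -0.13 (95% interval -0.34 to 0.08). The responses of the strains differed (interaction -0.95, SE 0.14, adjusted p = 0.000667), also in all 24 other settings tried. In starvation *grp78* was 2.07-fold lower in *cys-3*- (log2 fold change -1.04, SE 0.10, adjusted p = 7.5e-06), a ratio that was 1.96-fold without replicate 3 of starved wild type. With sulfate the strains differed by -0.09 (95% interval -0.30 to 0.12).

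**Figure D3:**
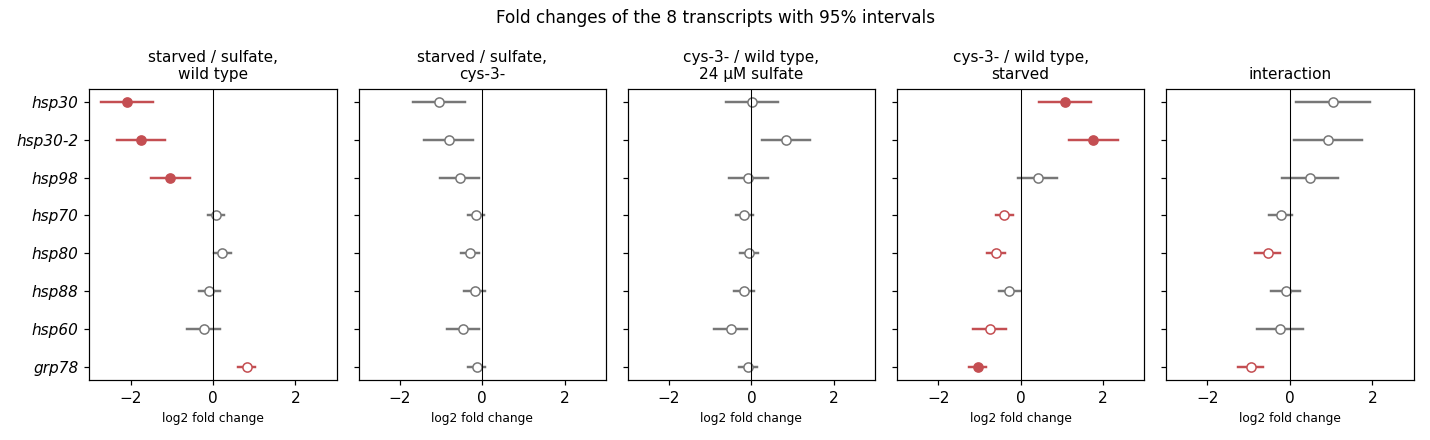
Log2 fold changes (horizontal axes) of the 8 transcripts with 95% intervals, in 4 comparisons and for the interaction, the *cys-3*- response minus the wild-type response. Red marks an adjusted p under 0.05, and filled points also differed by at least 2-fold. In starvation *hsp30* and *hsp30-2* were higher in *cys-3*-, and *hsp70*, *hsp80*, *hsp60* and *grp78* were lower.

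Library depth, here the sum of implied reads and not a count of reads, moved with several of these transcripts. *hsp70* and *hsp98* were highest in the deepest library of all 4 groups, and *hsp80*, *hsp88* and *hsp60* in 3 of 4, against 3.02% of all tested genes in 4 groups and 18.6% in 3 or 4. *grp78* was highest in the deepest library of 1 group, and *hsp30* and *hsp30-2* of 2. The libraries of starved *cys-3*- held 7.87 to 8.96 implied megareads and those of starved wild type 8.64 to 10.9. With implied depth as a covariate, an alternative chosen after the values had been seen, the same 6 genes passed between the strains in starvation, at log2 fold changes of -0.29 for *hsp70*, -0.49 for *hsp80*, -0.49 for *hsp60* and -1.02 for *grp78*, and of 1.13 for *hsp30* and 1.66 for *hsp30-2*. In this fit *hsp60*, *hsp80* and *hsp88* fell in starved *cys-3*- cells (adjusted p = 0.0084, 0.0197 and 0.0221), *hsp80* rose in starved wild type (adjusted p = 0.0446), and the interaction of *hsp70* also passed (-0.30, adjusted p = 0.0479). The share of all tested genes that passed in this fit was not computed. The falls of *hsp30*, *hsp30-2* and *hsp98* in wild type kept sizes of -2.10, -1.74 and -1.06.

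Among 4 other genes with heat shock protein symbols, *hsp70-2*, *hsp78*, *hsp90a* and *hsp70-5*, none was called in any comparison, against 0.0199% to 3.59% of all tested genes. *hsp90a* (NCU01792), named for the Hsp90 family, rose in starved wild type and not in *cys-3*-. It stood at 116, 123 and 105 FPKM with sulfate and at 152, 166 and 178 FPKM in starvation in wild type, and at 135, 117 and 123 FPKM and at 125, 116 and 111 FPKM in *cys-3*-. The wild-type groups did not overlap (log2 fold change 0.53, SE 0.09, adjusted p = 0.00102), and the interaction passed (-0.62, SE 0.12, adjusted p = 0.00602). *hsp70-2* (NCU02075) fell in starved wild type, from 1545, 1150 and 1581 FPKM to 1105, 962 and 1069 FPKM (log2 fold change -0.43, SE 0.13, adjusted p = 0.0312). That fall passed in 18 of 24 other settings and missed the test without replicate 1 or 3 with sulfate or replicate 2 or 3 in starvation, with adjusted p values up to 0.12. *hsp78* and *hsp70-5* passed in no comparison.

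The pattern of *grp78* was also seen in *hsp70-6* (NCU09485), a gene taken from a sheet of genes that the study had chosen on these samples, so that its direction is not independent evidence. It stood at 44.5, 40.0 and 44.5 FPKM in wild type with sulfate and at 57.1, 86.2 and 69.1 FPKM in starvation. In *cys-3*- it stayed between 32.0 and 40.7 FPKM in all 6 libraries. In starvation it was called lower in *cys-3*- (log2 fold change -1.06, SE 0.12, adjusted p = 4.8e-05), and its interaction was -0.87 (SE 0.17, adjusted p = 0.0053). Genes of the Hsp70 and Hsp90 families can share reads where their sequences are alike, and how such reads were assigned among them was not tested.

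Of 13 further genes listed by symbol, 12 were tested, and *fkr-3* was under the minimum of 10 FPKM in every group. In starved wild type 1 rose and 5 fell, against 11.1% and 12.0% of all tested genes. In *cys-3*- none passed, against 0.417%. None was called in any comparison, where 0.0199% to 3.59% of all tested genes were. The transcripts of the heat shock transcription factors *hsf-1* and *hsf-2* did not pass in any comparison. *hsf-1* stayed between 22.5 and 27.0 FPKM and *hsf-2* between 22.6 and 26.5 FPKM over the 12 libraries. The cyclophilin gene *csr-1* did not pass in any comparison either. *fkr-2* (NCU04140), which belongs to the FK506-binding proteins, prolyl isomerases that help proteins fold, rose in starved wild type from 289, 342 and 315 FPKM to 413, 387 and 429 FPKM (log2 fold change 0.38, SE 0.08, adjusted p = 0.00456). Its estimate in *cys-3*- was -0.12, and the interaction passed (-0.50, SE 0.11, adjusted p = 0.0109). Another gene overlaps *fkr-2* by 689 bases, and on the implied reads its rise in wild type was 0.07 (limma-voom adjusted p = 0.724) and its interaction -0.21 (adjusted p = 0.464). Its implied reads stayed between 1653 and 1876 in all 12 libraries, while its FPKM ran from 289 to 429. They hardly varied, so these 2 estimates cannot decide whether the rise in FPKM holds.

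Of the genes for mitochondrial protein import, *tim8*, *tim10*, *tim14* and *un-4* fell in starved wild type by 0.27 to 0.43 on the log2 scale, while *tim9*, *tim13* and *tim44* did not pass. *tim8* and *tim10* encode small chaperones of the space between the mitochondrial membranes. *tim14* (NCU00075), whose yeast counterpart is a J-domain partner of mitochondrial Hsp70, stood at 95.8, 90.6 and 88.9 FPKM with sulfate and at 70.4, 70.3 and 62.8 FPKM in starvation in wild type. In *cys-3*- it stood at 85.7, 82.0 and 83.6 FPKM and at 76.4, 80.3 and 76.5 FPKM. Its fall was larger in wild type (interaction 0.32, SE 0.09, adjusted p = 0.0372), a difference that passed in 14 of 24 other settings, with adjusted p values up to 0.18. The falls of *tim8*, *tim10* and *un-4* also passed in 14 of 24, and all 3 missed the test without replicate 1 of wild type with sulfate (adjusted p = 0.137, 0.137 and 0.16). *fkr-4* also fell in wild type (log2 fold change -0.78, adjusted p = 0.0166), although its groups overlapped and the test was missed without replicate 1 or 3 with sulfate or replicate 1 in starvation (adjusted p up to 0.0742).

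**Figure D4:**
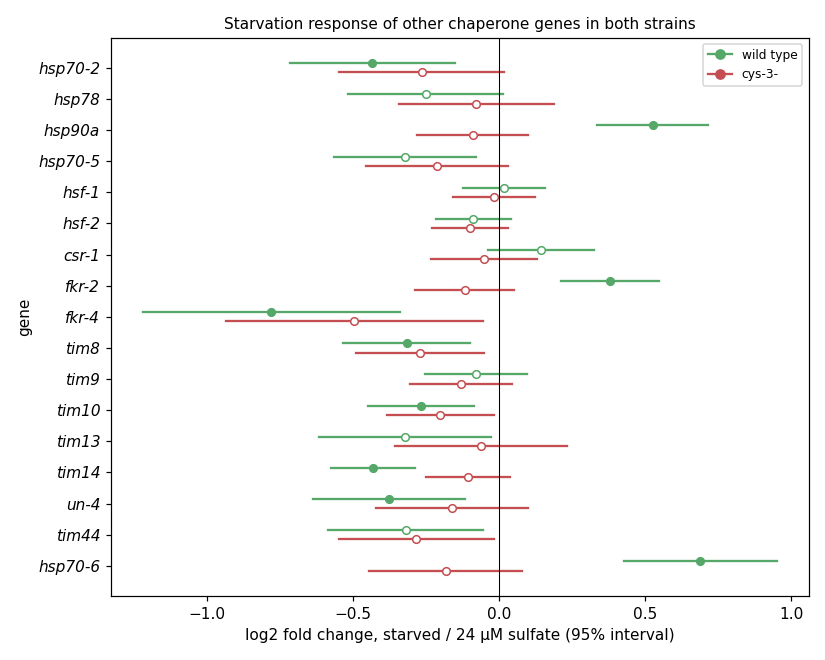
Log2 fold change from 24 μM sulfate to starvation (horizontal axis, with 95% intervals) of 17 other genes of chaperones, mitochondrial protein import and heat shock factors in wild type (green) and *cys-3*- (red). Filled points had an adjusted p under 0.05: 3 genes rose and 6 fell in wild type, and 0 passed in *cys-3*-. Of all tested genes, 11.1% rose and 12.0% fell in wild type, and 0.417% passed in *cys-3*-. The rising *hsp70-6* came from genes that the study had chosen on these samples.

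The genes whose profiles over the 12 libraries were most like those of the 3 falling genes were sought among the other 5034 tested genes, by the mean absolute difference of centred log2 values. NCU01735 was the nearest to both *hsp30* (0.28) and *hsp30-2* (0.28), nearer than those 2 genes were to each other (0.42). It stood at 157, 120 and 65.4 FPKM in wild type with sulfate and at 36.1, 17.2 and 22.3 FPKM in starvation, and at 115, 145 and 141 FPKM and 61.8, 68.1 and 113 FPKM in *cys-3*-. The next nearest were *ccg-9* (0.38) and NCU04537 (0.41) for *hsp30*, and NCU00984 (0.41) and *ncw-5* (0.41) for *hsp30-2*. Nearest to *hsp98* were NCU06586 (0.13), NCU01645 (0.16) and NCU07082 (0.19). Within the 8 genes, *hsp70* and *hsp88* had the most similar profiles (0.07), then *hsp70* and *hsp80* (0.08), and *hsp30-2* and *grp78* the least similar (1.13). The measure is not scaled to how much a gene varies, so genes that vary little lie near each other. The mean absolute deviation from their own means was 0.83 for *hsp30* and for *hsp30-2*.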

How the data were processed

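RNA of 12 mycelial cultures was analysed in 4 groups taken from the sample labels, 3 per group. The authors sequenced poly(A) RNA as 90-bp single-end reads on an Illumina HiSeq, aligned them to predicted transcripts of genome version 12 with HiSat2 (2.0.5 in the methods, 2.1.0 in the submitters' processing notes), and deposited FPKM values computed with Cufflinks 2.2.1, treating the reads as unstranded and scaling to hits compatible with the transcripts. The notes also name Cuffnorm 2.2.1. Upper interval bounds deposited with the FPKM gave implied reads, as the square of 2F/(H − F) for FPKM F and bound H. Only 77.3% of the 16468 values not above 20 came within 0.05 of an integer, so these reads served only for depth and 1 alternative. Nothing states how the authors separated reads of overlapping or related genes.

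Group means were fitted with limma 3.58.1 in R 4.3.3 (moderated variances, mean-variance trend) to log2(FPKM + 1) over the 12 libraries for the 5035 genes that reached 10 FPKM on average in any group, leaving out 4 genes with a failed status. The p values were adjusted by Benjamini-Hochberg over these genes. A call needed an adjusted p under 0.05, group means 2-fold apart (for the interaction, the ratios of mean FPKM + 1) and 10 FPKM in a group compared. The fit was tested on simulated data. Coordinates and symbols were those of the files and RefSeq.

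All 8 members are named in each comparison, with *cys-3* as the label check. Of the other chaperone genes the rule names those called, or else the largest log2 fold change in each comparison, and 3 nearest profiles for *hsp30*, *hsp30-2* and *hsp98*. The remaining genes named were chosen after their values were seen. The members and lists were chosen with earlier results of these data known, and the 13 further genes after the reference table was seen. Alternatives were a pseudocount of 0.1, a minimum of 1 FPKM or none, upper-quartile scaling, quantile normalization, only the groups compared, a replicate block, no variance trend, array weights, limma-voom on implied reads, folds on the log2 scale, each library left out and, added after the values were seen, implied depth as a covariate. Python 3.11.15, pandas 2.3.3, numpy 2.4.6 and matplotlib 3.10.9 were used. The study's binding data were not used here.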

Additional observations from a re-analysis of the deposited data

Results flagged for a closer look

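The response to starvation differed between wild type and *cys-3*- for 6 of the genes described, by the interaction term of the limma fit. The *cys-3*- response minus the wild-type response was -0.953 for *grp78*, -0.872 for *hsp70-6*, -0.617 for *hsp90a*, -0.534 for *hsp80*, -0.498 for *fkr-2* and 0.325 for *tim14*, all on the log2 scale. The differences of *hsp80* and *tim14* passed in only 14 of 24 other settings each. The gene *hsp70-6* was taken from genes that the study had chosen on these samples. Groups of 3 libraries were too small for a test of single outlying libraries.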

How the results depend on the processing

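The falls of *hsp30* and *hsp30-2* in starved wild type, the higher *hsp30-2* in starved *cys-3*- and the *grp78* interaction passed in all 24 other settings. Of 1272 values for single genes under those settings, 18 turned direction and 63 lost and 23 gained an adjusted p under 0.05. Every value that turned direction belonged to a difference that had not passed, and the cause was not tested. In the comparison of strains with sulfate, array weights gave 0.22 for *hsp98*, implied depth as a covariate gave 0.20 for *hsp98*, 0.12 for *hsp80*, 0.094 for *hsp88* and 0.0079 for *hsp70*, quantile normalization gave -0.0040 for *hsp30*, and limma-voom gave 0.21 for *hsp88*. Limma-voom also gave *hsp88* 0.0099 for starvation in wild type and 0.025 between the starved strains, and array weights gave interactions of 0.026 for *hsp60* and 0.015 for *hsp88*. With libraries left out 1 at a time, the difference between strains with sulfate ranged from -0.31 to 0.25 for *hsp98*, from -0.32 to 0.37 for *hsp30* and from -0.13 to 0.023 for *hsp80*. For *hsp88*, starvation in wild type ranged from -0.21 to 0.012 and the interaction from -0.20 to 0.025.

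Among the 8 genes, 3 passed for starvation in *cys-3*- with array weights and 3 with depth as a covariate, and 3 passed between strains with sulfate with array weights (0 to 1 with libraries left out). The interaction passed for 1 gene without a minimum, with quantile normalization, with the replicate block and with limma-voom, and for 1 to 3 with libraries left out, 0 to 1 of them called. The share of all tested genes that passed under these settings was not computed, so these counts of passing genes have no background. Over all genes, calls between the starved strains numbered 181, but 287 with a minimum of 1 FPKM and 304 with none, of which 63.1% and 63.2% were lower instead of 76.8%, and 65.6% with quantile normalization. Calls between strains with sulfate numbered 8, but 14 with array weights and 5 to 37 with libraries left out, the 37 without replicate 2 of wild type. For starvation in *cys-3*- the 1 call became 0 with quantile normalization, the replicate block, no variance trend, limma-voom or log2-scale folds, and 0 to 10 with libraries left out.

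Replicate numbers did not pair the samples across all groups: 2 of 18 correlations of same-numbered deviations exceeded 0.1 (range -0.51 to 0.45), and 6 of 36 comparisons were best with the own number. Both that exceeded 0.1 were between wild type and *cys-3*- with sulfate, at 0.23 for replicate 1 and 0.45 for replicate 2, beside 0.075 for replicate 3. Under the replicate block all-gene calls were 157, 0, 8, 182 and 156 in the 5 comparisons, against 157, 1, 8, 181 and 160. No scaling moved the median of all genes by over 0.1 on the log2 scale. With 3 cultures a group, an exact permutation test of a single gene cannot go below 0.1. The fewest implied reads behind a value of the members were 290.5.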
